A study of Mus musculus with 15 samples.

Results

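The proteasome is the protease that degrades ubiquitin-tagged proteins in every nucleated cell, and the genes described here encode its constitutive subunits. They were chosen by a rule on name and biotype, with earlier results of these data known. The rule took the protein-coding genes of the count table called Psma, Psmb, Psmc or Psmd plus a number. It left out the immunoproteasome genes Psmb8, Psmb9 and Psmb10. This gave 37 of 26688 genes in the table, of which 18761 are protein-coding. By their known roles, 16 encode subunits of the core particle and 17 encode subunits of the regulatory particle. The others are 3 genes for assembly chaperones that carry a Psmd name (Psmd5, Psmd9 and Psmd10) and Psmc3ip, a meiotic recombination factor that shares letters with the family but is no subunit. Psma8 and Psmb11 are core subunits known from the testis and the thymic cortex, so 31 broadly expressed subunits remained (14 core and 17 regulatory).

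The libraries came from joint tissue of the forelimb of male, wild-type DBA/1 mice aged 8 weeks at assignment, with 5 libraries in each of 3 groups. CIA+F20 mice had collagen-induced arthritis and received F20, a compound known here only by its code name, by mouth at 10 mg/kg once daily for 21 days. CIA mice had the same arthritis and no F20, and healthy mice were not immunized. Arthritis was raised with bovine type II collagen in Freund's adjuvant, an autoimmune model, and mice of both arthritic groups entered at an arthritis index over 5. The tissue was a mixture of synovium, capsule and other soft tissue left after skin and most muscle were taken off, and whether each library is a separate mouse is not stated, so p-values measure the spread between libraries.

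The core particle is a barrel of stacked rings. Its outer rings are built of alpha subunits, which gate the entrance, and its inner rings of beta subunits, of which Psmb5, Psmb6 and Psmb7 carry the proteolytic sites. The regulatory particle caps the barrel: its base holds the Psmc ATPases, which unfold and thread substrates, and the ubiquitin receptor Psmd4, and its lid holds the deubiquitinase Psmd14. In inflamed tissue, interferon signalling induces Psmb8, Psmb9 and Psmb10, which take the places of Psmb5, Psmb6 and Psmb7 in newly made particles. When proteasome activity is short, the transcription factor encoded by Nfe2l1, processed with the help of the protease Ddi2, is known to raise transcription of most subunit genes through antioxidant response elements.

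Matches to the core of that element, TGACNNNGC on either strand, were looked up in RefSeq promoter windows (GRCm38.p6, from 250 bases before to 50 after the start), which held 30 of the 37 genes, Psmb7 not among them. The motif was present in 5 of these 30 genes (16.7%), against 14.0% of all 27025 genes with a window, a share close to the background. It lay 47 bases before the start in Psmb5 and 9 bases before the start in Psmb6, and those promoters are printed because the levels of the catalytic genes are followed below. The 250 bases before the start are given 5′ to 3′ on the strand of the gene with the match in capitals, for Psmb5 at chr14:54617996-54618245 (minus strand) and for Psmb6 at chr11:70525107-70525356 (plus strand).
Psmb5: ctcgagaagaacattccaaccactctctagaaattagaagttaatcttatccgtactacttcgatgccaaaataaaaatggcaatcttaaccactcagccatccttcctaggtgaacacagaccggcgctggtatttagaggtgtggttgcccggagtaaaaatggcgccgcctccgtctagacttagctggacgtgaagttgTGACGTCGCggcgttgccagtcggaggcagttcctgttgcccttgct
Psmb6: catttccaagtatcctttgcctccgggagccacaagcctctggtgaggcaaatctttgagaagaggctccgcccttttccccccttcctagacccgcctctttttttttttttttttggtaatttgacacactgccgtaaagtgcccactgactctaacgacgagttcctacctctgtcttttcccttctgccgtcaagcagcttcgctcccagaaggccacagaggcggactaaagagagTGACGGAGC
The other matches were in Psmc6, Psmd12 and Psmd9. The CCAAT box was found in 13 of 30 genes (43.3%), against 41.1% of all genes, with 7 of 12 core genes (58.3%) and 4 of 14 regulatory genes (28.6%) holding it. These are letter matches in a window and do not show that a factor binds there.

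The libraries held 18627303 to 34247317 counted reads, and the 37 genes took 0.329% to 0.548% of them. For CIA over healthy, the standard error of a log2 fold change was 0.07 to 0.18 among the 31 subunits. Its median over all genes tested was 0.19. Levels below are CPM, reads of a gene as a share of its library, scaled between libraries by the trimmed mean of M-values (TMM). The TMM factors were 0.905 to 0.994 in CIA+F20, 1.06 to 1.24 in CIA and 0.883 to 0.957 in healthy, so the scaling moves CIA libraries relative to the others. Marker genes showed mixed tissue throughout. Skeletal muscle markers took 9.95% to 11.3% of counts in CIA+F20, 6.18% to 12.3% in CIA and 10.5% to 11.9% in healthy, and macrophage markers 0.00717% to 0.0139%, 0.0158% to 0.0604% and 0.00339% to 0.0116% in the same groups. Neutrophil markers took 0.0194% to 0.0617%, 0.0281% to 0.314% and 0.00321% to 0.0318%, osteoclast markers 0.00152% to 0.00818%, 0.0118% to 0.0643% and 0.00124% to 0.0038%, and erythroid markers 0.0475% to 0.132%, 0.0253% to 0.329% and 0.00669% to 0.0896%, again in CIA+F20, CIA and healthy. Synovial fibroblast markers were present in all 3 groups, with none at 0, while the keratinocyte genes Krt5 and Krt14 had no read in any CIA+F20 library.

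The summed level of the particles differed between group means by less than the SD of the CIA group, and the CIA libraries lay far apart. The 16 core genes summed to 1278 ± 78.7 CPM in CIA+F20, 1355 ± 168 CPM in CIA and 1339 ± 72.5 CPM in healthy libraries (SD, n = 5 each). The 17 regulatory genes summed to 2308 ± 163, 2568 ± 514 and 2367 ± 139 CPM in the same order of groups. Both particles together reached 3058, 4365, 3336, 4286 and 4568 CPM in CIA libraries 1 to 5, against 3481 to 4048 CPM in healthy. CIA libraries 1 and 3 were below every healthy library and CIA libraries 2, 4 and 5 above every one, so no CIA library was inside the healthy range (mean of CIA 3923 ± 677 CPM). As a plain share of counts, without TMM scaling, the 37 genes took 0.346%, 0.548%, 0.366%, 0.525% and 0.489% in CIA libraries 1 to 5, against 0.331% to 0.379% in healthy. On that scale CIA libraries 1 and 3 were inside the healthy range and the other CIA libraries stayed above it. In CIA+F20 libraries 1 to 5 the sum was 3862, 3532, 3785, 3494 and 3260 CPM, and only library 5 was below the healthy range. In bulk tissue, fewer cells of a type and less RNA per cell cannot be told apart.

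**Figure D1:**
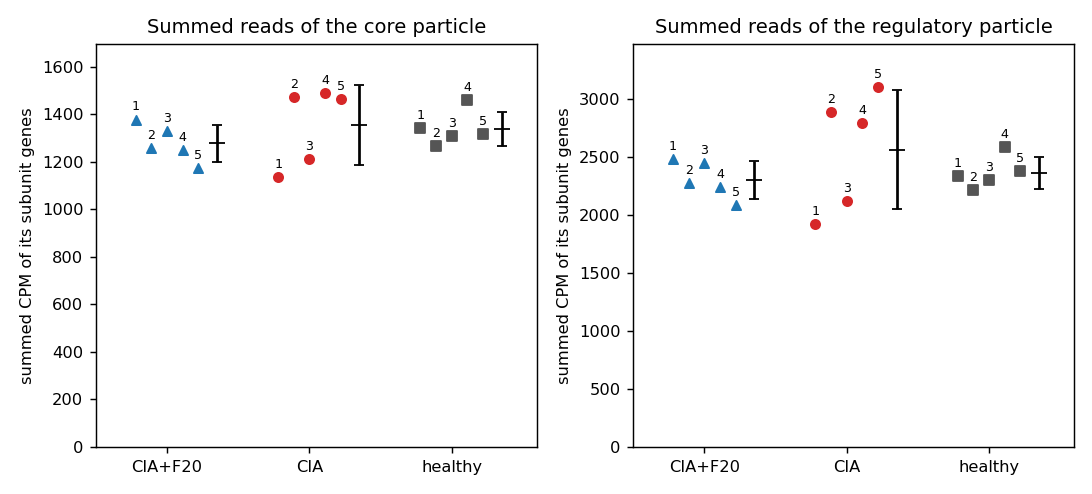
Summed CPM of the core particle genes (left) and the regulatory particle genes (right) in every library, with the group mean and SD beside the points (n = 5 each). Numbers are library numbers. The CIA points run from 1135 to 1489 CPM for the core and from 1923 to 3104 CPM for the regulatory particle, a wider spread than in either other group.

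On the TMM scale the CIA libraries lay apart for most subunits. In CIA library 1, 28 of the 31 subunits were below the lowest healthy library and 1 was above the highest. In CIA library 3, 22 were below and none was above. In CIA libraries 2, 4 and 5, 20, 19 and 19 subunits were above the highest healthy library, with 2, 4 and 2 below the lowest. The median subunit stood at log2 differences of -0.27, 0.15, -0.16, 0.19 and 0.21 from the healthy mean in CIA libraries 1 to 5. The same value was 0.06, -0.06, -0.01, -0.08 and -0.18 in CIA+F20 libraries 1 to 5, with 27 subunits of library 5 below the healthy range. The share of all genes outside the healthy range was not counted for any library. These counts therefore describe the libraries and do not set the subunits apart from other genes.

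The coefficient of variation between libraries had a median over the 31 subunits of 6.67% in CIA+F20, 16.7% in CIA and 6.62% in healthy. It was higher in CIA than in either other group for 31 of 31 subunits. The same count was not made over all genes. Pairs of libraries within a group were also compared over genes at large, by a chi-square per gene. Its smallest value between CIA libraries was 96.4, above the largest in CIA+F20 (55.3) and in healthy (42.1). CIA libraries thus lay further apart over genes at large too, and the count does not set the subunits apart from other genes. The lid subunit Psmd11 varied most in CIA (35.2%): it had 87.0, 162, 93.1, 203 and 157 CPM in CIA libraries 1 to 5, against 118 to 126 CPM in healthy. The catalytic subunit Psmb6 varied least in CIA (6.92%), with 89.1, 103, 101, 94.4 and 106 CPM, against 102 to 113 CPM in healthy. Muscle markers took 8.04%, 7.64%, 12.3%, 6.18% and 11.2% of counts in CIA libraries 1 to 5, and mitochondrial genes took the largest share of any library, 22.3%, in CIA library 1. The part of tissue composition or RNA quality in the spread was not tested.

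**Figure D2:**
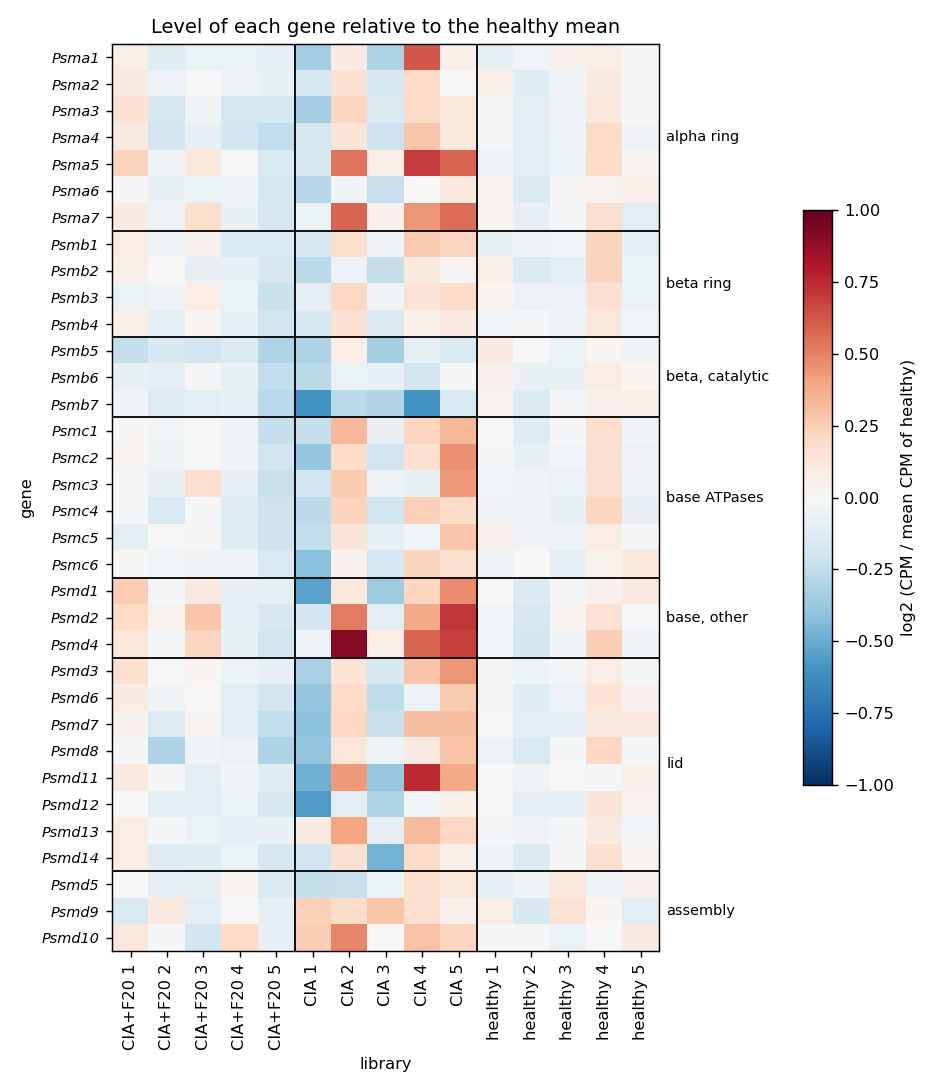
Level of 34 tested genes in each of 15 libraries, as the log2 ratio of CPM to the mean CPM of healthy; red is above and blue below that mean, and rows are grouped by role. CIA libraries 1 and 3 are blue over most rows and CIA libraries 2, 4 and 5 are red over most rows, and the Psmb7 row is blue in all 5 CIA libraries.

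The balance between the particles also varied among CIA libraries. Core genes gave 35.7 ± 0.314% of the summed CPM of both particles in CIA+F20, 34.8 ± 2.03% in CIA and 36.1 ± 0.339% in healthy (SD, n = 5 each). In CIA libraries 1 to 5 the share was 37.1%, 33.8%, 36.4%, 34.7% and 32.1%, against 35.6% to 36.5% in healthy. It was thus above the healthy range in CIA library 1, inside it in library 3 and below it in libraries 2, 4 and 5. In CIA+F20 it was 35.2% to 36.05%, which overlaps the healthy range.

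**Figure D3:**
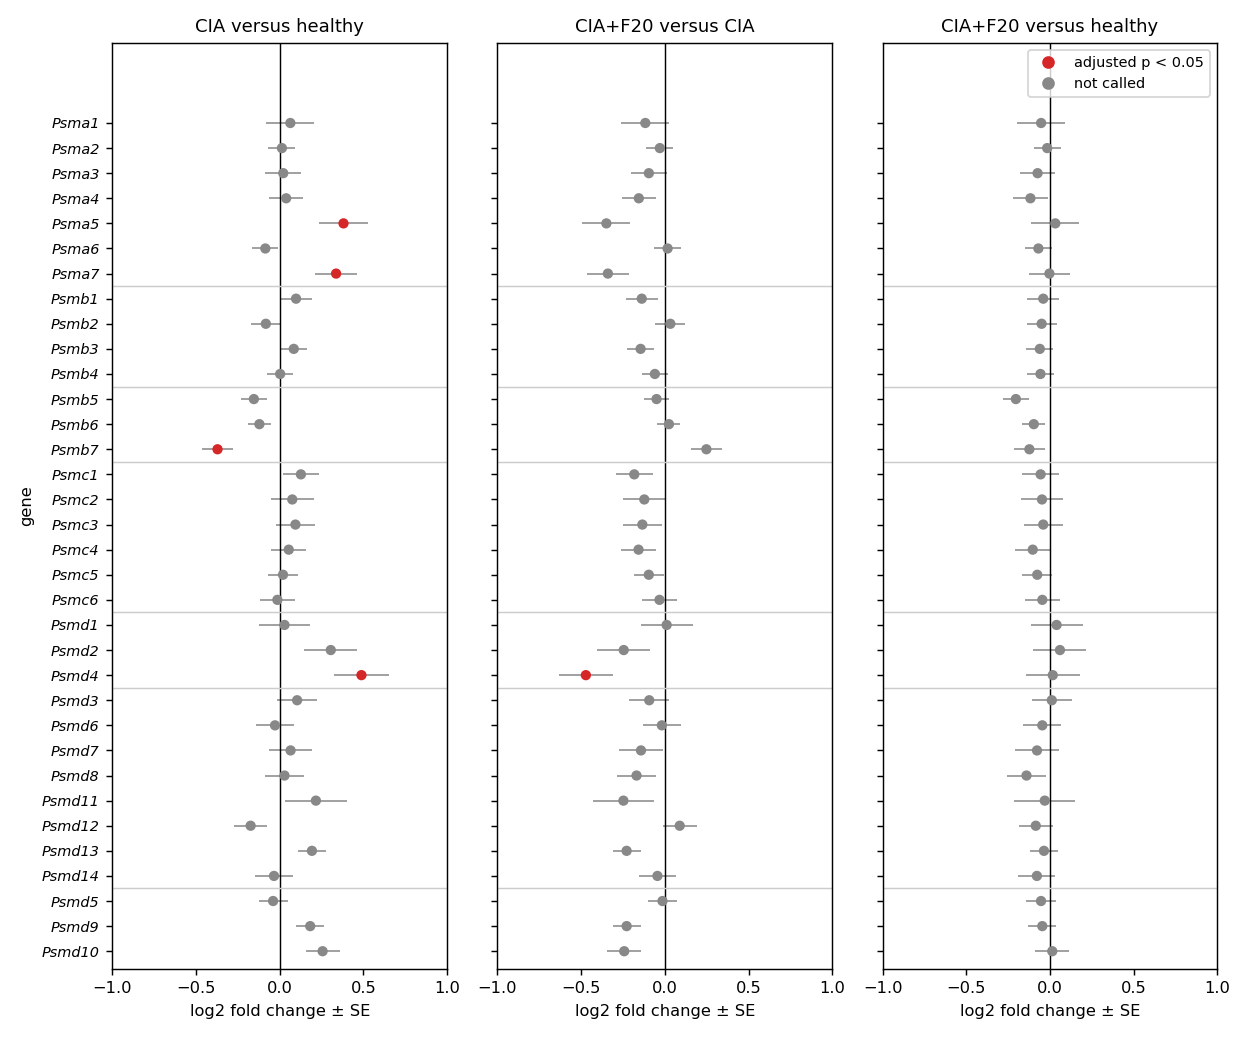
Log2 fold change ± SE of each gene of both particles and of the 3 assembly chaperones for the 3 comparisons; red points have an edgeR adjusted p under 0.05. Psma5, Psma7, Psmd4 and Psmb7 are red in CIA versus healthy, Psmd4 alone in CIA+F20 versus CIA, and none in CIA+F20 versus healthy. Psma8 and Psmb11 are not drawn.

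CIA against healthy asks what arthritis did to these transcripts. How many changed depended on the scaling. With TMM, of 36 genes tested, 5 passed an edgeR adjusted p of 0.05 (13.9%), against 45.5% of all 15770 genes tested. Psma5, Psma7, Psma8 and Psmd4 were higher and Psmb7 lower, where 26% of all genes were called higher and 19.5% lower. Psma8 passed the count filter mainly through CIA, where it was high. Among the 31 broadly expressed subunits, 4 were called (12.9%). With total counts alone, 27 of the 36 were called higher (75%) and none lower, against 46.7% of all genes higher and 8.58% lower, so the share called was below that of all genes with TMM and above it without scaling. The results that follow are on the TMM scale unless stated. The median log2 fold change was 0.02 over the core genes tested and 0.06 over the regulatory genes, beside 0.07 over all genes. Psmb11 was under the count filter, with at most 3 reads in any library.

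In the catalytic ring, Psmb7, the subunit of trypsin-like activity, fell. It had 80.6, 102, 99.9, 81.3 and 110 CPM in CIA libraries 1 to 5, against 126, 111, 122, 127 and 128 CPM in healthy libraries 1 to 5. Every CIA library was below every healthy library, although the margin between CIA library 5 (110 CPM) and healthy library 2 (111 CPM) was small. The log2 fold change was -0.37 ± 0.09 (SE, edgeR adjusted p = 0.00488), a decrease of 22.7%. It was the only one of the 36 genes tested without overlap between the groups, beside 12.5% of all genes below, 11.7% above and 24.3% either way. The call was kept when any library of these groups was left out, with log2 fold changes of -0.43 to -0.32. Without TMM scaling the fold change was -0.07 and not called (adjusted p = 0.529), a scale on which the median of all genes stood 0.31 higher. Psmb7 (chr2:38478048-38534099, GRCm39) overlaps Nek6, a kinase gene on the opposite strand, by 6571 bases. Nek6 was higher in CIA, by 1.34 ± 0.41 on the log2 scale (edgeR adjusted p = 0.0156; 0.73 and not called without CIA 2), and no source states whether strand was used in counting, so reads of the overlap cannot be assigned between them.

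The other catalytic subunits were not called. Psmb5, the chymotrypsin-like subunit and target of bortezomib, had 39.5, 51.3, 38.8, 45.9 and 43.9 CPM in CIA, against 51.6, 48.8, 46.7, 49.6 and 47.7 CPM in healthy, with -0.15 ± 0.08 on the log2 scale (edgeR adjusted p = 0.11). Psmb6, the caspase-like subunit, gave -0.12 ± 0.07 (adjusted p = 0.159). The 3 catalytic genes together summed to 209, 256, 240, 222 and 260 CPM in CIA libraries 1 to 5, against 262 to 289 CPM in healthy, so the CIA libraries lay below the healthy range also where the other subunits were high. These sums are a description of libraries scaled by TMM: with total counts alone, Psmb5 stood at 0.16 and Psmb6 at 0.19.

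In the alpha ring, 2 of 7 genes rose (28.6%), close to the 26% of all genes called higher. Psma5 had 42.4, 69.7, 49.99, 78.0 and 71.9 CPM in CIA, against 46.4, 44.6, 45.9, 54.4 and 48.5 CPM in healthy. Psma7 had 99.7, 157, 108, 142 and 154 CPM in CIA, against 106, 98.5, 104, 117 and 97.3 CPM in healthy. In both genes CIA libraries 2, 4 and 5 were above all healthy libraries and libraries 1 and 3 were in or near the healthy range. The log2 fold changes were 0.38 ± 0.14 for Psma5 and 0.34 ± 0.12 for Psma7 (SE, edgeR adjusted p = 0.0422 and 0.0378). Both calls were fragile: each was lost in 7 of the 10 fits that left out a library of these groups, namely CIA 2, 4 or 5 or healthy 1, 2, 3 or 5. Over those fits the log2 fold change was 0.29 to 0.38 for Psma5 and 0.27 to 0.34 for Psma7. The remaining alpha genes, Psma1, Psma2, Psma3, Psma4 and Psma6, had log2 fold changes of -0.09 to 0.06, and the structural beta genes Psmb1, Psmb2, Psmb3 and Psmb4 of -0.08 to 0.10.

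In the regulatory particle 1 of 17 genes rose (5.88%), against 26% of all genes called higher. This gene was Psmd4, whose product binds ubiquitin chains. It had 143, 281, 156, 223 and 239 CPM in CIA, against 146, 131, 145, 176 and 145 CPM in healthy. CIA libraries 1 and 3 were inside the healthy range and CIA libraries 2, 4 and 5 were above it. The log2 fold change was 0.49 ± 0.16 (SE, edgeR adjusted p = 0.0245). It missed the threshold without CIA 2 (0.36, adjusted p = 0.0753), without healthy 2 (0.44, adjusted p = 0.059) or without healthy 5 (0.48, adjusted p = 0.051). Psmd2, the scaffold of the base and the one with the most reads among these genes, had 250, 411, 265, 372 and 470 CPM in CIA, against 255 to 316 CPM in healthy, and gave 0.31 ± 0.16 (adjusted p = 0.127). The 6 ATPase genes were not called, at -0.01 to 0.13, and none of the 8 lid genes was, at -0.17 (Psmd12) to 0.22 (Psmd11).

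**Figure D4:**
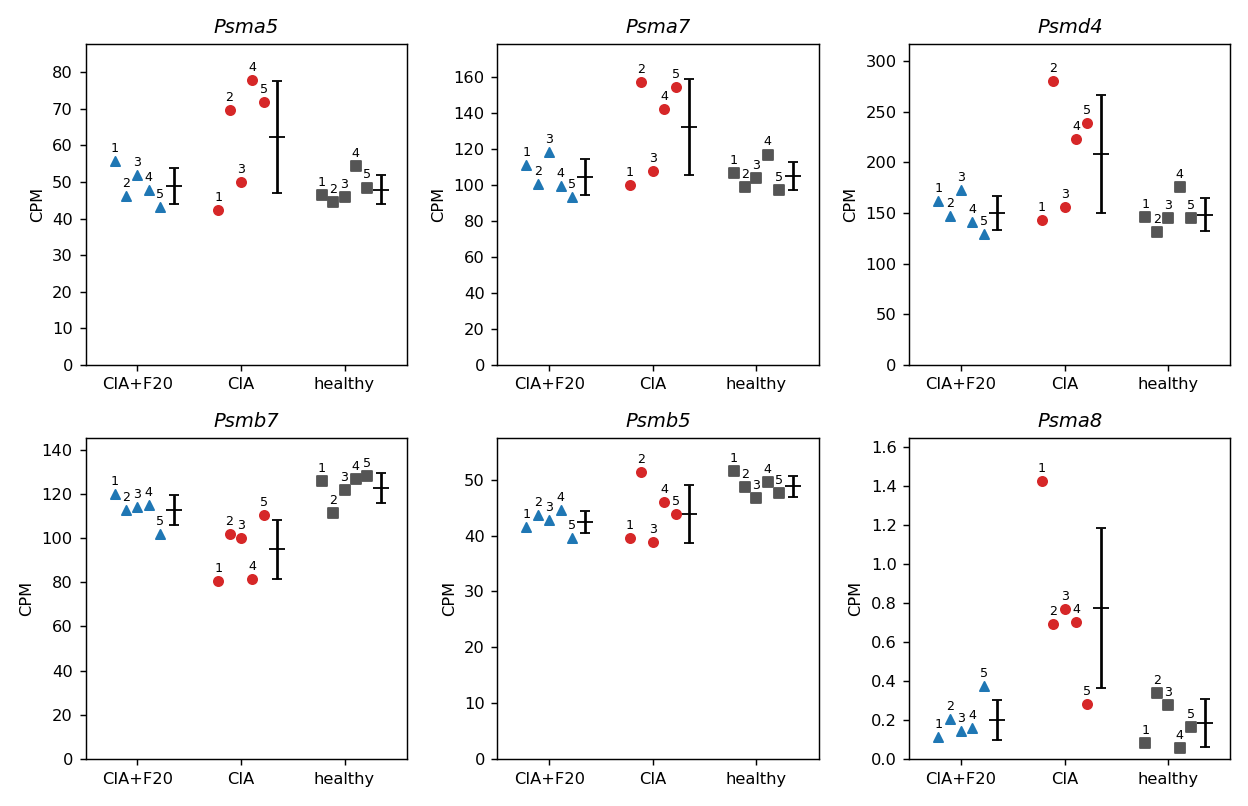
CPM of 6 genes in each library with group mean and SD (n = 5 each), library numbers beside the points. Psma5, Psma7 and Psmd4 are high in CIA libraries 2, 4 and 5; Psmb7 is low in all 5 CIA libraries; Psmb5 is below the healthy range in all 5 CIA+F20 libraries; Psma8 stays under 1.5 CPM everywhere.

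Psma8, the testis alpha subunit, was called on very few reads. It passed the count filter mainly through CIA, the group where it was high, and no healthy library reached the filter's level. Its call is therefore no independent support for a difference. It had 31, 21, 20, 19 and 8 reads in CIA libraries 1 to 5, against 2, 10, 8, 1 and 5 in healthy, and CIA library 5 overlapped the healthy range. The log2 fold change was 1.96 ± 0.48 (SE, edgeR adjusted p = 0.00447), and it stayed called in the 10 fits without a library of these groups. It was tested in only 17 alternative fits, against 19 for Psma5. Its level in healthy was 0.22 TPM (a unit that corrects for transcript length), against 34.3 TPM or more for each of the 31 broadly expressed subunits, so it added almost nothing to the summed core. Psmc3 was the highest of them in healthy, at 248 ± 20.2 TPM (SD, n = 5), and was the highest also with the union of exons as the length, at 195 TPM; the order of the others depended on the length used. The assembly chaperones lay at 10.5 to 13.5 TPM in healthy. Of these, Psmd9 gave 0.18 ± 0.08 (edgeR adjusted p = 0.0866), Psmd10, also known as gankyrin, 0.26 ± 0.10 (adjusted p = 0.0508) and Psmd5 -0.04 ± 0.09 (adjusted p = 0.729), and Psmc3ip 0.09 ± 0.21 (adjusted p = 0.752).

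The 27 of 31 subunits that were not called had log2 fold changes between -0.17 and 0.31, and their 95% confidence intervals ran at most from -0.39 (Psmd12) to 0.64 (Psmd2). On simulated counts for CIA versus healthy over 15319 genes, the test recovered 4% of changes by a factor of 1.25, 24% at a factor of 1.5, 84% at a factor of 2 and 96% at a factor of 3. The changed genes were drawn from all genes above a minimum level in healthy, not from the subunits. Their standard errors were not compared with those of the 31 subunits, so these shares need not hold for the subunits. Of the 27 uncalled subunits, 25 had an interval within a factor of 1.5 in either direction, and those of Psmd2 and Psmd11 reached beyond it.

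CIA+F20 against CIA asks what F20 did in arthritic mice. With TMM, most subunits had small negative differences that did not pass the test. Of 36 genes tested, 2 were called lower (5.56%) and none higher, against 15.5% of all genes called lower, 14.1% higher and 29.6% in either direction. Among the 31 broadly expressed subunits, 1 was called (3.23%). With total counts alone, 29 of the 36 were called lower (80.6%) and none higher, against 38.1% of all genes lower and 6.59% higher, so here too the order of the shares depended on the scaling. With TMM, no gene of the 36 was free of overlap between the groups, beside 8.28% of all genes above and 5.32% below (13.6% together). Psmd4 fell, with 161, 146, 172, 141 and 129 CPM in CIA+F20 libraries 1 to 5, against 143, 281, 156, 223 and 239 CPM in CIA libraries 1 to 5. All CIA+F20 libraries were below CIA 2, 4 and 5 and overlapped CIA 1 and 3. The log2 fold change was -0.47 ± 0.16 (SE, edgeR adjusted p = 0.0417). It missed the threshold in 7 of the 10 fits without a library of these groups, those without CIA 2, 4 or 5 or CIA+F20 1, 2, 4 or 5 (-0.50 to -0.34).

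Psma8 was the other gene called, with 3, 5, 4, 5 and 11 reads in CIA+F20, against 31, 21, 20, 19 and 8 in CIA, and a log2 fold change of -1.92 ± 0.47 (adjusted p by edgeR = 0.0106). As above, Psma8 passed the count filter mainly through CIA, so this call too is no independent support for a difference. Several genes that had differed between CIA and healthy lay just over the threshold. Psma7 had 111, 100, 118, 99.1 and 93.2 CPM in CIA+F20 and a log2 fold change over CIA of -0.34 ± 0.12 (adjusted p = 0.0504), and Psma5 had 55.8, 46.2, 52.0, 47.7 and 43.2 CPM and -0.35 ± 0.14 (adjusted p = 0.0766). Psmb7 had 120, 113, 114, 115 and 102 CPM in CIA+F20 and gave 0.25 ± 0.09 (edgeR adjusted p = 0.0533), and Nek6, its overlapping neighbour, -1.42 ± 0.41 (adjusted p = 0.0211; -0.80 and not called without CIA 2). Psmd9 and the lid subunit Psmd13 gave -0.23 ± 0.08 each (edgeR adjusted p = 0.051 and 0.0518). This comparison shares the CIA libraries with the one before, so opposite signs in the 2 are not separate observations.

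Over the particles, 26 of 32 subunits tested had a negative log2 fold change and 6 a positive one. The median was -0.10 over core genes and -0.13 over regulatory genes, beside -0.06 over all genes. All 6 ATPases were on the negative side, at -0.18 to -0.03, without a call. For the 30 of 31 subunits not called, 95% intervals ran at most from -0.66 (Psma5) to 0.44 (Psmb7). The spread also differed, without a test: the regulatory sum ranged over 2085 to 2483 CPM in CIA+F20 and over 1923 to 3104 CPM in CIA. Markers of several cell types moved with these genes. In CIA+F20 against CIA, 6 of 8 macrophage markers (median log2 fold change -1.14) and 5 of 6 osteoclast markers (-2.78) were called lower and 4 of 14 muscle markers (0.43) higher. Neutrophil and erythroid markers had medians of -1.41 and -0.69, with 6 of 6 and 7 of 7 negative and none called. Their part in the result was not tested.

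CIA+F20 against healthy asks what remained. None of the 36 genes tested was called, and neither was any of all 15770 genes (0% by edgeR); without adjustment 1388 genes (8.80%) had a p under 0.05, and DESeq2 called 124. Of 32 subunits tested, 26 were on the lower side of zero, with medians of -0.06 over core and -0.05 over regulatory genes, beside 0.01 over all genes. Psmb5 was the only one of the 36 genes tested without overlap between the groups, and had 41.5, 43.7, 42.8, 44.5 and 39.6 CPM in CIA+F20, against 51.6, 48.8, 46.7, 49.6 and 47.7 CPM in healthy. Every CIA+F20 library was below every healthy library, as in 1.27% of all genes (1.98% were above and 3.25% either way), and the log2 fold change was -0.20 ± 0.08 (edgeR adjusted p = 0.431), so the difference did not pass the test over all genes. Psmb5 was at about the same level in CIA+F20 as in CIA (-0.05 ± 0.08, adjusted p = 0.636). For the 31 subunits the 95% intervals ran at most from -0.42 to 0.40.

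The inducible counterparts of the catalytic subunits were set against them as a ratio of reads within a library, which does not depend on the scaling between libraries. Psmb8 reads per 100 Psmb5 reads were 23.1 ± 4.22 in CIA+F20, 34.7 ± 9.69 in CIA and 11.9 ± 5.31 in healthy. Psmb9 reads per 100 Psmb6 reads were 8.14 ± 1.66, 14.3 ± 5.50 and 4.20 ± 1.71 in the same groups, and Psmb10 reads per 100 Psmb7 reads were 13.8 ± 1.58, 19.5 ± 6.40 and 11.0 ± 1.06 (SD, n = 5 each). The reads of each constitutive subunit thus outnumbered those of its inducible counterpart in every library. CIA was above healthy without overlap in all 3 ratios, by 1.59, 1.76 and 0.76 on the log2 scale (exact two-sided permutation test, p = 0.00794 each, the smallest possible, and 0.0238 adjusted over 9 tests). The difference of 0.76 does not measure Psmb10 alone. In the fit over all genes Psmb10 stood at 0.41 and Psmb7 at -0.37, and reads where Psmb7 overlaps Nek6 cannot be assigned.

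CIA+F20 was lower than CIA by log2 differences of -0.57 for Psmb8 to Psmb5 and -0.75 for Psmb9 to Psmb6 (exact permutation adjusted p = 0.0306 and 0.0357), and -0.44 for Psmb10 to Psmb7 did not pass (adjusted p = 0.103). When a library was left out, only the unadjusted permutation p was held against 0.05, a laxer threshold than the adjusted one. It was 0.05 or more in 4 of 10 fits for the first ratio (without CIA+F20 1, 3, 4 or 5). For the second ratio it was so in 5 of 10 (without CIA+F20 1, 3 or 4 or CIA 1 or 4). In these fits 4 against 5 libraries leave fewer assignments. Over the 10 fits the differences ranged over -0.65 to -0.45 and -0.92 to -0.59. Against healthy, CIA+F20 was higher by 1.03 and 1.02 (exact permutation adjusted p = 0.0286 each) and by 0.32 (adjusted p = 0.0306). In the fit over all genes, Psmb8 and Psmb9 were higher in CIA than in healthy by log2 fold changes of 1.39 ± 0.26 and 1.62 ± 0.28 (edgeR adjusted p = 0.00111 and 0.000664). Psmb10 was higher by 0.41 ± 0.14 (edgeR adjusted p = 0.0264), a call lost in 6 of 10 fits without a library (healthy 1, 3 or 5 or CIA 1, 2 or 4). In CIA+F20 against CIA, Psmb9 was lower by -0.76 ± 0.27 (edgeR adjusted p = 0.046), a call lost in 7 of 10 such fits (CIA 1, 2 or 4 or CIA+F20 1, 3, 4 or 5), and Psmb8 at -0.63 ± 0.26 and Psmb10 at -0.21 ± 0.14 were not called (adjusted p = 0.0727 and 0.255). In CIA+F20 against healthy none of Psmb8, Psmb9 and Psmb10 was called, at 0.75, 0.86 and 0.20 (edgeR adjusted p = 0.393, 0.363 and 0.76), so the higher ratios of CIA+F20 over healthy have no matching call in the fit over all genes. Markers of several cell types moved with these genes in CIA against healthy: 8 of 8 macrophage markers (median log2 fold change 1.77), 6 of 6 neutrophil (3.47), 5 of 6 osteoclast (3.67) and 6 of 7 erythroid markers (1.92) were called higher, and their part was not tested.

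**Figure D5:**
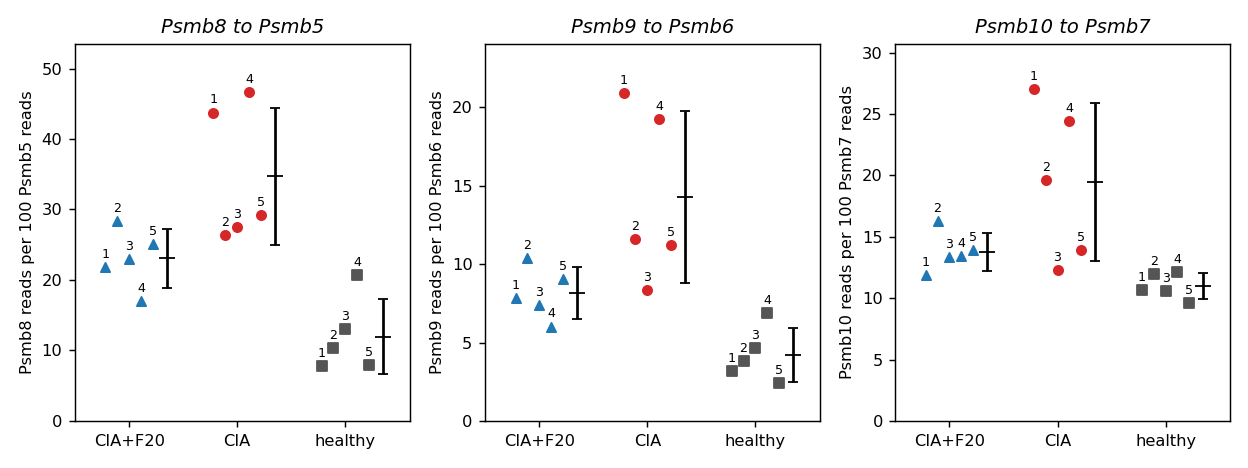
Reads of an inducible subunit per 100 reads of the constitutive subunit it replaces, by library, with group mean and SD (n = 5 each). CIA points lie above all healthy points in each panel, and CIA+F20 means of 23.1, 8.14 and 13.8 lie between those of CIA and healthy.

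Genes that act on or around the particle were followed in 7 lists, with the inducible subunits above as 1 of them. Over all genes, 26% were called higher and 19.5% lower in CIA against healthy. In CIA+F20 against CIA these shares were 14.1% and 15.5%. Of 4 genes in the transcriptional control of the proteasome, Nfe2l1 was lower in CIA and Nfe2l2 and Ddi2 were higher. Ngly1, which deglycosylates the Nfe2l1 product, was not called. Nfe2l1 had 661, 793, 634, 749 and 912 CPM in CIA, against 983, 1021, 954, 1083 and 1077 CPM in healthy. It did not overlap between the groups, beside 12.5% of all genes below without overlap. Its log2 fold change was -0.45 ± 0.11 (SE, edgeR adjusted p = 0.00444). Nfe2l2, the antioxidant factor related to it, gave 0.62 ± 0.16 (adjusted p = 0.00531) and Ddi2 0.86 ± 0.27 (adjusted p = 0.0184), a call lost without CIA 2 (0.66) or CIA 4 (0.68). CIA+F20 averaged 1000 ± 87.7 CPM of Nfe2l1, CIA 750 ± 111 CPM and healthy 1024 ± 56.6 CPM (SD, n = 5 each), and CIA+F20 was higher than CIA by 0.42 ± 0.11 (edgeR adjusted p = 0.0139). For Nfe2l2 the log2 fold change of CIA+F20 over CIA was -0.47 ± 0.16 (edgeR adjusted p = 0.035), a call lost in 6 of 10 fits without a library (CIA 2 or 4, or CIA+F20 2, 3, 4 or 5; -0.48 to -0.31). With total counts alone the differences of CIA+F20 over CIA were 0.16 for Nfe2l1, not called, and -0.75 for Nfe2l2, called.

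Among 3 enzymes that work on the proteasome, the ubiquitin ligase Ube3c, which helps it finish difficult substrates, fell in CIA, to 55.8 ± 6.42 CPM, against 72.4 ± 4.59 CPM in healthy (SD, n = 5 each), or -0.38 ± 0.08 on the log2 scale (edgeR adjusted p = 0.00199). In CIA+F20 it averaged 73.2 ± 3.24 CPM and was higher than in CIA by 0.39 ± 0.08 (adjusted p = 0.00485). The 2 groups had no overlap, beside 8.28% of all genes above without overlap. With total counts alone the difference was 0.14 and not called. Usp14 and Uchl5 were not called in either comparison. Of 6 assembly factors, the chaperone Psmg1 alone was called, lower in CIA by -0.32 ± 0.08 (edgeR adjusted p = 0.00528). It had no overlap between the groups, beside 12.5% of all genes below without overlap. Of 5 activators and inhibitors, the interferon-inducible activator subunit Psme2 alone was called, higher in CIA by 0.53 ± 0.13 (adjusted p = 0.00558); its partner Psme1 gave -0.02 ± 0.09. Of the 2 small regulatory subunits outside the naming rule, Adrm1 and Sem1, neither was called in CIA, and Sem1 was lower in CIA+F20 than in CIA by -0.31 ± 0.09 (edgeR adjusted p = 0.018). Of 9 shuttle and segregase genes 1 was called in CIA, Ubqln4 at -0.35 ± 0.10 (adjusted p = 0.011), beside 19.5% of all genes called lower. Markers of several cell types moved the same way as the lower genes in CIA against healthy. Skeletal muscle markers were negative in 14 of 14 with 9 called, and endothelium markers in 4 of 4 with 3 called. Adipocyte markers were negative in 4 of 4 with 0 called, and the 1 keratinocyte marker tested was called lower. The part of these cell types in the result was not tested. These lower calls in CIA also depended on the scaling: with total counts alone Nfe2l1 stood at -0.14, Ube3c at -0.07, Psmg1 at -0.01 and Ubqln4 at -0.05, and none was called, while the higher calls of Psmb8, Psmb9, Psme2, Nfe2l2 and Ddi2 were kept.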

How the data were processed

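Polyadenylated RNA of 15 libraries was sequenced in read pairs on an MGI instrument, per the labels' protocols. Per the submitters' processing notes, the tools were fastp 0.23.2, HISAT2 2.2.1 with the GRCm39 build and featureCounts 2.0.3. Which annotation release, strand option and rule for multimapped reads the authors took is not given in the sources used here. Values in the deposited table are the authors' read counts for each gene, whole and not normalized. Of the 37 genes, 14 overlap another gene of the table, so their counts can share reads.

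The genes, their roles and the gene lists were chosen with earlier results of these data known. Libraries were grouped by title. Counts were fitted in R 4.3.3 with edgeR 4.0.16 (with limma 3.58.1): TMM scaling, filterByExpr with minimum count 10 (15770 genes tested, 10918 under the filter), all 3 groups in the fit, and the quasi-likelihood F test with Benjamini-Hochberg adjustment over all genes tested. The biological coefficient of variation was 27.8%. Each standard error is the absolute fold change on the log2 scale over the root of its F statistic. "Called" means an adjusted p under 0.05. The procedure was tested on simulated counts. Because the groups share the CIA or the healthy libraries, comparisons are not independent. Ratios of reads had 0.5 added to both counts and were compared by an exact two-sided permutation test. TPM used the length of the canonical transcript in GENCODE vM39, with the union of exons as an alternative. CPM intervals and standard errors cover the spread of these libraries, and counting error is small except for Psma8, Psmb11 and Psmc3ip. Pairs of libraries within a group differed by a chi-square per gene of 22.0 to 272 over 30 pairs, so none was a duplicate. Named genes are all those matched by the naming rule; members of the lists around the particle are named if called, or to complete a small list. Alternatives were other scalings (RLE, upper quartile, total counts), no or a stricter count filter (100 reads in 5 libraries), DESeq2 1.42.0, fits of only the 2 groups compared, a fit without mitochondrial and muscle genes, a replicate block and leaving out each library.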

Additional observations from a re-analysis of the deposited data

Results flagged for a closer look

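The check covered each gene but Psmb11 in each group, the sum of each particle and the ratios of inducible to constitutive reads. The balance between core and regulatory particle was not among the items checked. Of 123 groups of 5 libraries, 8 held a library far from the other 4. About 1 in 20, or 6.15, would be expected by chance. In 6 of the 8 the library was healthy 4, the shallowest of all, and it was high. Healthy 4 had 162 CPM of Psmb1 (128 to 136 in the other healthy libraries), 148 CPM of Psmb4 (134 to 136), 134 CPM of Psmc2 (113 to 118), 229 CPM of Psmc3 (194 to 199), 101 CPM of Psmc4 (82.8 to 85.2) and 86.7 CPM of Psmd13 (79.6 to 80.8). Healthy 2 was low for Psma6, with 84.1 CPM against 93.6 to 95.9 in the others. CIA+F20 5 was low for Psmc1, with 118 CPM against 136 to 141 in the others. In CIA no library was set apart in this way.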

How the results depend on the processing

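For the 36 genes, 621 of 681 alternative values for CIA versus healthy, 617 of 681 for CIA+F20 versus CIA and 681 of 681 for CIA+F20 versus healthy stayed on the same side of the threshold without a called value changing sign; small uncalled values changed sign in 54, 31 and 46 cases. With total counts alone the median of all genes moved by 0.31 for CIA versus healthy and by -0.26 for CIA+F20 versus CIA. Psma6, Psmb6, Psmc6 and Psmd5 then turned positive in CIA versus healthy (0.22, 0.19, 0.30 and 0.27), and Psma6 and Psmb6 negative in CIA+F20 versus CIA (-0.24 and -0.23). Psme1, an activator subunit outside the naming rule, turned to 0.29 and -0.23 in these comparisons. Relative to the shifted median, core and regulatory genes lay at -0.04 and 0.00, and at -0.05 and -0.08, close to the values with TMM.

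In CIA versus healthy, total counts called 7370 genes higher and 1353 lower instead of 4094 and 3081, with 11 core genes higher, 0 core genes lower and 13 regulatory genes higher instead of 3, 1 and 1. Core genes higher were 1 with no count filter and 0 with only the 2 groups in the fit; regulatory genes higher were 2 with the stricter filter and 0 with only the 2 groups. In CIA+F20 versus CIA, total counts called 1039 genes higher and 6002 lower instead of 2219 and 2450, and the fit of 2 groups 1364 and 1310. Core genes lower were 12 with total counts, 2 with RLE, upper quartile, the stricter filter or DESeq2 and 0 with 2 groups, instead of 1, and core genes higher were 1 (Psmb7) under the same 4 settings instead of 0. Regulatory genes lower were 13 with total counts, 2 with upper quartile, the stricter filter or DESeq2, and 0 with no filter or 2 groups, instead of 1. In CIA+F20 versus healthy DESeq2 called 113 genes higher and 11 lower instead of 0 and 0. The cause of these changes was not tested; a fit of 2 groups has fewer libraries.

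Leaving out a library gave, in CIA versus healthy, 3420 to 4430 genes higher, 2560 to 3621 lower, 1 to 3 core genes higher, 1 to 2 lower and 0 to 3 regulatory genes higher. In CIA+F20 versus CIA it gave 1478 to 3007 genes higher, 1405 to 3208 lower (lowest without CIA 2, highest without CIA 5), 0 to 1 core genes higher, 1 to 3 lower and 0 to 2 regulatory genes lower, and in CIA+F20 versus healthy 0 to 105 higher and 0 to 2 lower. Ratios ranged, for Psmb8 to Psmb5, Psmb9 to Psmb6 and Psmb10 to Psmb7, over 1.46 to 1.81, 1.59 to 1.96 and 0.63 to 0.91 in CIA versus healthy; -0.65 to -0.45, -0.92 to -0.59 and -0.59 to -0.31 in CIA+F20 versus CIA; and 0.90 to 1.25, 0.84 to 1.22 and 0.26 to 0.37 in CIA+F20 versus healthy.

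Whether replicate numbers in the titles mark a pairing is not stated. Correlations of deviations between same-numbered libraries were -0.43 to 0.28. Libraries with different numbers were not compared in this way, so these values cannot decide it. With the replicate block, core genes higher in CIA versus healthy were 1 and regulatory genes higher 0; in CIA+F20 versus CIA 1460 genes were lower, with 0 regulatory genes.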
